A study of Solanum tuberosum with 100 samples.

Results

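Cross 2172 is a family of 7 tetraploid potato genotypes obtained by crossing Crop52 with the variety 'Summit Russet'. Its members are the 7 samples whose genotype name starts with 2172, of 100 samples in all, and they were compared with the 93 samples of the other 10 crosses. All 11 crosses have Crop52 as a parent and differ in the other parent (V390, 'Admiral', 'Dolce Vita', 'Driver', Crop18, 'Moonlight', 'Red Rascal', Crop9, Crop37 and Crop58), so cross 2172 and the rest of the panel are half-sibs. Every sample was a bruised tuber: a lead weight was dropped on the tuber, tissue of the struck side was taken 2 h later, and the tissue of 3 tubers was pooled. PolyA RNA of 1 biological replicate per genotype was then sequenced. In cross 2172, 2 genotypes belonged to the high-bruising group (2172_3 and 2172_6), 3 belonged to neither group (2172_1, 2172_2 and 2172_5) and 2 belonged to the low-bruising group (2172_4 and 2172_7). In the other crosses, 31 samples were in the high-bruising group, 23 in neither and 39 in the low-bruising group. Since 1 library stands for each genotype, the spread within a family holds the differences between siblings, between plants and between libraries together. Where each cross has its own term, the p-values rest on that spread. Where cross 2172 is set against the pooled other crosses, the spread also holds the differences between those 10 families.

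Blackspot bruising of potato tubers follows a mechanical impact. Phenolic compounds, among them tyrosine and chlorogenic acid, meet polyphenol oxidases that turn them into quinones, and the quinones polymerise into dark pigments. Tuber flesh is also rich in storage proteins, mainly the patatins, which act as lipid acyl hydrolases, and protease inhibitors of the Kunitz and related families, which are known to respond to wounding in potato. Progeny of 1 cross share both parents, whereas half-sibs in this panel share Crop52 as a parent. Some of the other parents are related as well: the study reports a common parent for 'Moonlight', 'Driver' and Crop18.

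The libraries of cross 2172 held between 17176281 and 23696732 counted reads (median 19418962), and those of the other crosses between 6832655 and 41650152 (median 19370171). Between 21705 and 22677 of the 25163 genes had at least 1 read in a sample of cross 2172, and between 20533 and 23129 in a sample of the other crosses. The tuber label was checked against the storage proteins: the 5 patatin genes together reached 1808 to 3776 CPM (counts of a gene relative to the library total, scaled by the TMM method) in cross 2172 and 559 to 15380 CPM in the other crosses. Levels of bulk tissue are given, so fewer cells of a type and less RNA per cell cannot be told apart.

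The first question was how far the family stood apart as a whole. Likeness between samples was described by Pearson's r across the 17200 genes with a mean of at least 1 CPM, on log2 values centred on each gene's mean over the 100 samples, and genes are not independent replicates. The 21 sibling pairs of cross 2172 had r between -0.08 and 0.36, with a mean of 0.212. The genotypes 2172_2 and 2172_3 were the most alike pair (r = 0.363), and 2172_1 and 2172_6 were the least alike (r = -0.0816). For 6 of the 7 genotypes the most similar of all other samples was a sibling. The exception was 2172_1, whose nearest sample was 2168_8 of cross 2168 (r = 0.291), against a mean of 0.118 with its own 6 siblings. Genotype 2172_6 also stood somewhat apart, with a mean of 0.153, and the other 5 had means from 0.193 to 0.282.

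Across families, the samples of cross 2172 were on average most like those of crosses 2165 (mean r = 0.0892), 2170 (0.0505) and 2168 (0.0455). They were least like those of crosses 2159 (-0.117) and 2183 (-0.115). The mean within cross 2172 itself, 0.212, lay inside the range of the within-family means of the other crosses, which ran from 0.170 in cross 2168 to 0.377 in cross 2165. The values describe these samples and carry no test.

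**Figure D1:**
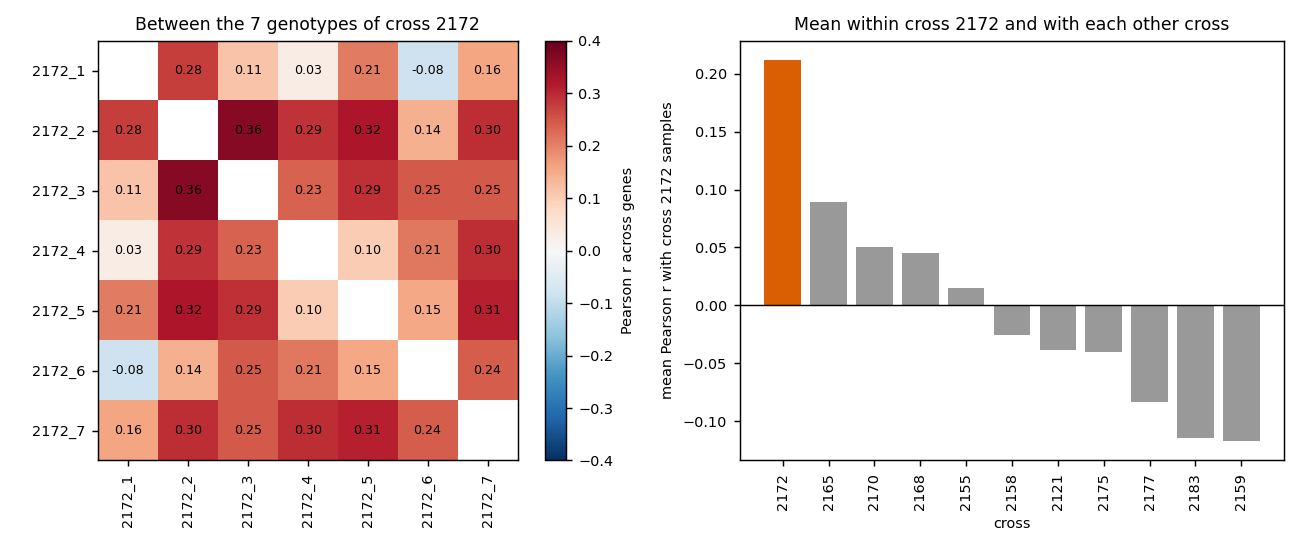
Pearson's r across 17200 genes of centred log2 CPM, between the 7 genotypes of cross 2172 (left, colour and printed value) and as the mean within cross 2172 and between cross 2172 and each other cross (right, bars from 0). Genotype 2172_1 had r between -0.08 and 0.28 with its siblings, and the mean within the family, 0.212, lay above the mean with each of the 10 other crosses.

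Gene by gene, 597 of 25163 genes (2.37%) differed between cross 2172 and the other crosses at a threshold of 0.05 on the adjusted p (quasi-likelihood test of edgeR, bruising group as covariate, Benjamini-Hochberg adjustment over all genes). Of the 597, 360 genes (1.43% of all genes) were higher in cross 2172 and 237 (0.942% of all genes) were lower. Without adjustment, 4615 genes (18.3%) had a p below 0.05. Among the adjusted calls, a 2-fold or larger difference was fitted for 267 of the 597, and 315 of them had a mean of at least 10 CPM. Of the 17200 genes with a mean of at least 1 CPM, 491 (2.85%) were among the 597. In 530 of the 597, the family mean of cross 2172 was the highest or the lowest of the 11 families. Over all genes it was the highest for 8.38% and the lowest for 8.35%. The 597 were picked for differing from the other crosses, so their share of extreme means is no independent evidence. No gene separated the groups completely: for 0 of 25163 genes did all 7 samples lie above the 93 others, and for 0 did all 7 lie below them. The calls rested on single siblings to a degree, since leaving out 1 of the 7 gave 311 to 516 calls and 157 of the 597 genes passed in all 7 such fits. Crosses were also families rather than independent samples: limma-voom called 845 genes, 494 of them among the 597, and with cross as a random block in limma-voom 72 genes passed, all of them higher in cross 2172, with 59 of them among the 597.

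The size of this set was compared with those of the other families. Put against the other 10 in the same way, cross 2168, which also has 7 samples, gave 208 genes, cross 2170 gave 605 and cross 2177 gave 977. The remaining 7 crosses gave between 1182 genes (cross 2175) and 6234 genes (cross 2159). Families differed in size, from 5 to 16 samples, and larger families can reach the threshold with smaller differences.

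Cross 2172 was then set against each other cross in turn, in contrasts that all share its 7 samples. It differed least from cross 2168, with 457 genes (1.82%), and from cross 2170, with 594 genes (2.36%). Cross 2155 followed with 1549 genes (6.16%). Crosses 2175, 2165 and 2121 gave 2533 (10.1%), 2598 (10.3%) and 2631 genes (10.5%), and crosses 2158 and 2177 gave 3092 (12.3%) and 3345 (13.3%). The most genes differed from cross 2183, 4505 (17.9%), and from cross 2159, 5830 (23.2%). Against cross 2165 the directions were uneven, with 1626 genes higher and 972 lower in cross 2172. The same direction in all 10 contrasts was found for 11 genes higher and 4 genes lower in cross 2172, and in at least 8 of the 10 for 86 higher and 56 lower. Library depth differed between crosses as well. It was 23536419 to 36776743 reads in cross 2177 and 13744728 to 21126069 in cross 2159, against 17176281 to 23696732 in cross 2172. The part of depth in these counts was not tested.

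**Figure D2:**
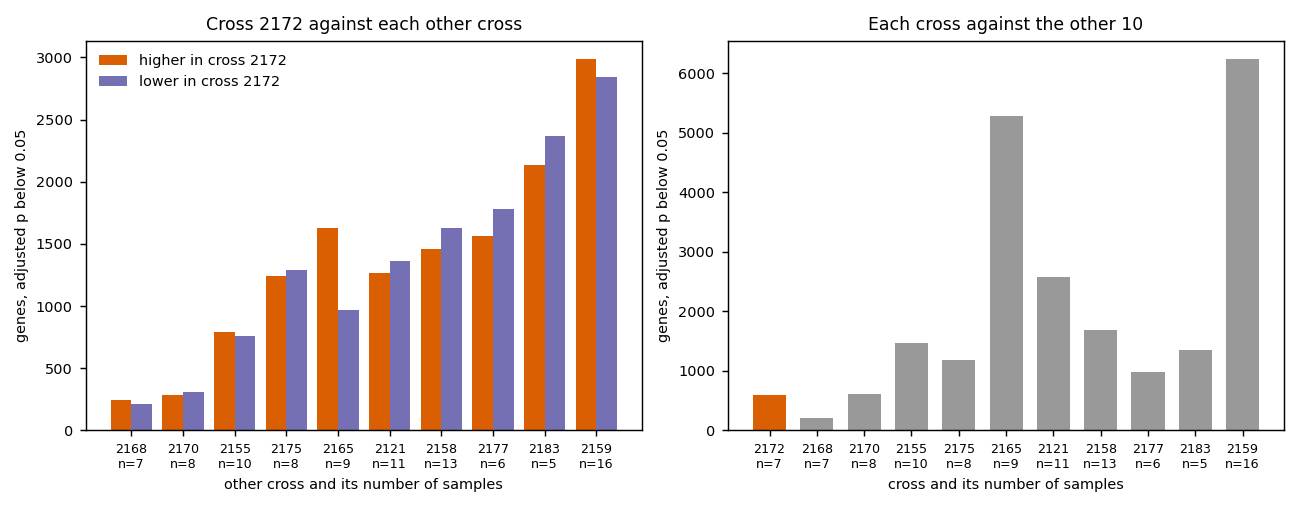
Number of genes with an adjusted p below 0.05 (vertical axes, from 0) between cross 2172 and each other cross, split by direction (left), and between each cross and the other 10 (right, cross 2172 in orange), with the number of samples per cross under each bar. Crosses 2168 and 2170 lay closest to cross 2172, with 457 and 594 genes, and cross 2159 lay farthest, with 5830.

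Genes that the study does not list carry no name in the sources, so 2 in each direction are given by identifier. They are those with the smallest p among genes with a mean of at least 1 CPM that passed in every fit leaving out a sibling. The smallest edgeR adjusted p over all genes, 1.1e-20, belonged to a gene outside this rule. Values of cross 2172 are listed from genotype 2172_1 to genotype 2172_7 throughout. PGSC0003DMG401001984 was expressed at 28.3, 32.9, 24.0, 35.9, 21.6, 27.1 and 19.95 CPM in cross 2172, against a lowest value of 3.59, a median of 8.42 and a highest value of 26.5 CPM in the other crosses. All 7 siblings were above the median of the others, and 4 of them were above the highest of the 93. The gene was higher in cross 2172 by 1.59 ± 0.18 (SE) on the log2 scale, with an edgeR adjusted p of 9.0e-11, and it was higher than in each of the 10 other crosses taken singly. The family mean was 27.1 CPM in cross 2172, against 15.5 CPM in cross 2170, which came nearest.

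PGSC0003DMG400014595 split the family. It had 1.42, 1.22, 11.4, 2.25, 0.419, 11.6 and 16.3 CPM in cross 2172, against 0.124, 1.05 and 3.96 CPM as the lowest, median and highest of the others. Genotypes 2172_3, 2172_6 and 2172_7 lay above every sample of the other crosses, while the other 4 siblings lay inside their range. The fitted difference was 2.50 ± 0.31 on the log2 scale (edgeR adjusted p = 1.2e-08).

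In the other direction, PGSC0003DMG400031049 had 5.64, 2.92, 6.52, 5.61, 9.01, 5.58 and 2.79 CPM in cross 2172, against 4.02, 11.1 and 27.9 CPM as the lowest, median and highest of the others. It was lower in cross 2172 by a log2 fold change of -1.11 ± 0.20 (edgeR adjusted p = 0.00021), and 2172_2 and 2172_7 lay under every other sample. PGSC0003DMG400007088 had 1.27, 2.34, 1.1, 1.47, 3.41, 2.71 and 1.23 CPM, against 1.46, 3.98 and 7.13 CPM in the others, with a log2 fold change of -1.13 ± 0.21 (edgeR adjusted p = 0.00023). Its 7 values were all under the median of the others, and the groups overlapped. With cross as a random block, the genes that were higher kept their calls, with adjusted p of 5.0e-08 for PGSC0003DMG401001984 and 0.0079 for PGSC0003DMG400014595. Those that were lower did not, with 0.24 for PGSC0003DMG400031049 and 0.16 for PGSC0003DMG400007088.

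Named genes were taken from the 97 that the study lists with an identifier and a description, 40 bruising candidates from earlier work and 57 that it found associated with bruising group in these same samples. Since those 57 were picked from these samples, they are no independent evidence on bruising. Of the 97, 92 were in the count table, and 5 of these differed between cross 2172 and the other crosses, against 2.37% of all genes. The other 5, comprising 3 polyphenol oxidase genes and 2 triacylglycerol lipase genes, were not analysed here. Of the 5 that differed, 3 were higher (1.43% of all genes) and 2 lower (0.942% of all genes). The log2 fold change was positive for 29 and negative for 63 of the 92, with a median of -0.29, against -0.03 over all genes. Against single crosses, between 5 of the 92 (5.43%) and 27 of them (29.3%) differed: 5 against cross 2168, where 1.82% of all genes differed, 5 against cross 2170 (2.36% of all genes) and 27 against cross 2159 (23.2% of all genes).

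The phenylpropanoid list holds enzymes that lead to lignin, chlorogenic acid and anthocyanins. HQT, hydroxycinnamoyl quinate CoA transferase on chromosome 7, makes chlorogenic acid, the main soluble phenolic of the tuber. It had 149, 150.2, 192, 122, 110.0, 174 and 112 CPM in cross 2172, against a lowest value of 86.0, a median of 226 and a highest value of 415 CPM in the other crosses. All 7 siblings were under the median of the others but inside their range, and the family mean, 144 ± 31.5 CPM (SD, n = 7), was the lowest of the 11 families. The log2 fold change was -0.63 ± 0.18 (edgeR adjusted p = 0.035). The call is a narrow one: it was lost on leaving out 2172_1, 2172_2, 2172_4, 2172_5 or 2172_7 (adjusted p up to 0.12), without cross 2158 or 2159, and with cross as a random block (adjusted p = 0.76). Taken cross by cross, HQT was lower in cross 2172 than in crosses 2158, 2159, 2175, 2177 and 2183, and the nearest family mean was that of cross 2168, 162 CPM.

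The 2 genes for 4-coumarate CoA ligase, the enzyme that activates coumaric acid before the branch to lignin and to chlorogenic acid, had a negative log2 fold change as well and did not pass the test. 4CL had 20.7, 54.6, 73.7, 39.8, 21.1, 47.7 and 61.8 CPM in cross 2172, against 13.3, 71.9 and 189.5 CPM as the lowest, median and highest of the others (log2 fold change -0.79 ± 0.28, edgeR adjusted p = 0.11). 4CL2 had 39.2, 59.9, 89.96, 55.9, 61.4, 57.7 and 49.7 CPM, against 12.3, 89.9 and 274 CPM in the others (-0.75 ± 0.34, adjusted p = 0.21). In each, 6 of the 7 siblings were under the median of the others. Single crosses did separate: 4CL was lower in cross 2172 than in 6 of the 10, while 4CL2 was lower than in 4 and higher than in 1.

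The other 4 members were scarce. Caffeic acid O-methyltransferase II, which methylates lignin precursors, was at 0 in 4 siblings and at most 0.292 CPM in the other 3, against a median of 0.158 and a highest value of 36.0 CPM in the other crosses (-3.83 ± 1.53, adjusted p = 0.15). Anthocyanin synthase had 0.448 to 1.45 CPM in cross 2172 and 0.262 to 28.4 CPM in the others. PAL, phenylalanine ammonia-lyase at the entry of the pathway, had 0 to 2.02 CPM in cross 2172 and 0 to 1.87 CPM in the others, and PEROX, a peroxidase, had 0.105 to 1.56 CPM in cross 2172 and 0 to 2.34 CPM in the others. Of the 7 phenylpropanoid genes, 1 was lower and none was higher by the test, and their median log2 fold change was -0.75. Their summed level was between 193 and 357 CPM in cross 2172 (median 225) and between 153 and 766 CPM in the other crosses (median 405).

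**Figure D3:**
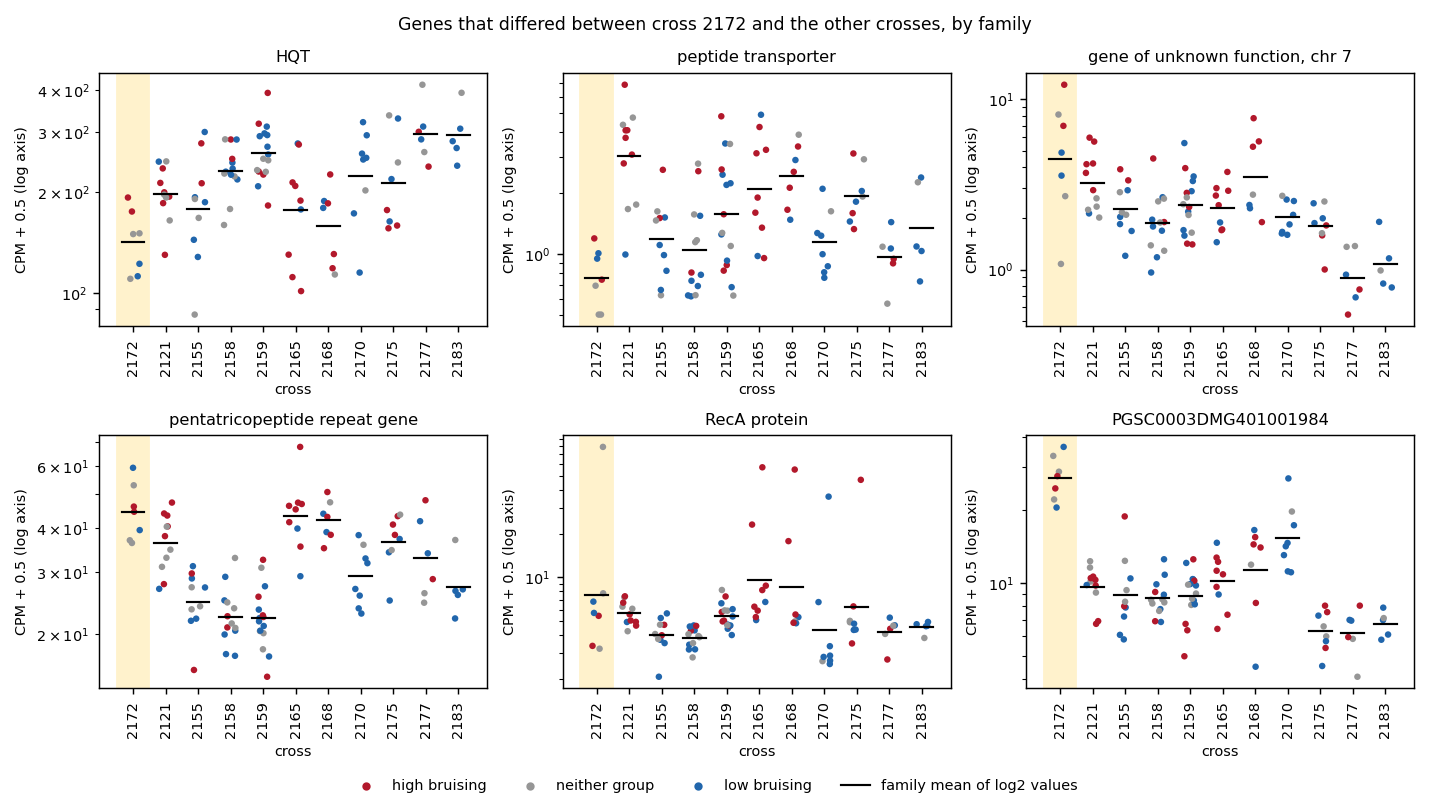
CPM plus 0.5 (log axis) of 6 genes in each sample, by cross, with cross 2172 at the left on a shaded ground, points coloured by bruising group and black lines at the family mean of log2 values. HQT and the peptide transporter gene had their lowest family mean in cross 2172, the gene of unknown function, the pentatricopeptide repeat gene and PGSC0003DMG401001984 had their highest there, and RecA was set apart by 1 sibling at 78.4 CPM.

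Polyphenol oxidases carry out the browning reaction itself, and catechol oxidase B and POT32 are members of this family on chromosome 8. All 6 genes in the table had a negative log2 fold change, with a median of -1.72 against -0.03 over all genes, and none of the 6 passed the test (smallest edgeR adjusted p = 0.16). With the other crosses weighted equally, all 6 stayed negative but were smaller in size, from -0.65 (POT32) to -2.21 (PPO-18917). COB had 9.28, 22.2, 14.8, 3.54, 19.4, 2.98 and 5.07 CPM in cross 2172, against 0.987, 18.4 and 185 CPM as the lowest, median and highest of the other crosses (-1.24 ± 0.58, adjusted p = 0.24). PPO-29576 had 14.6, 1.41, 2.81, 0.736, 18.4, 4.04 and 2.34 CPM, against 0, 9.07 and 124 CPM in the others (-1.82 ± 1.03, adjusted p = 0.34). The groups overlapped widely, and in each gene 5 of the 7 siblings were under the median of the others.

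POT32 had 2.64, 4.38, 0.367, 4.32, 1.89, 14.9 and 2.62 CPM in cross 2172, against 0.373, 5.37 and 83.0 CPM in the others (-1.21 ± 0.68, adjusted p = 0.34). The sibling 2172_6 alone was above the median of the others, and 2172_3, also a high-bruising genotype, had the lowest value of all 100 samples. PPO-18914 had 0 to 2.57 CPM and PPO-18917 had 0 to 0.264 CPM in cross 2172, against 0 to 18.7 and 0 to 4.83 CPM in the others. PPO-18925 had no read in the 7 siblings, nor in 76 of the 93 others. Counted from the highest of the 11 family means, cross 2172 was number 7 for POT32 and PPO-29576, 8 for PPO-18914 and 9 for COB. The mean of POT32 was 22.3 CPM in cross 2159, 4.44 CPM in cross 2172 and 3.06 CPM in cross 2170. Taken singly, POT32 was lower in cross 2172 than in 1 other cross, and COB and PPO-29576 than in 2. The 6 genes summed to between 8.87 and 42.6 CPM in cross 2172 (median 22.6), and to between 2.90 and 332 CPM in the other crosses (median 44.95).

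Protease inhibitors are small proteins that block digestive proteases, and the listed genes, all but 1 on chromosome 3, hold close copies, so reads shared between them may be missing from counts of uniquely aligned reads. All 10 members had a negative log2 fold change (median -1.18), although those of PIN2K and KTI-D were positive under some alternatives, and none passed the test. In 6 of the 10 the family mean of cross 2172 was the lowest of the 11, against 8.35% of all genes. The list includes 1 gene annotated as a stigma expressed protein. Their sum was between 1568 and 8278 CPM in cross 2172 (median 3185), and between 1010 and 18780 CPM in the other crosses (median 5679).

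PKPI-A5, aspartic protease inhibitor 5, came closest to the threshold. It had 74.0, 130.1, 279, 110, 361, 349 and 152 CPM in cross 2172, against 39.7, 469 and 2582 CPM as the lowest, median and highest of the others. All 7 siblings were under the median of the others, and the log2 fold change was -1.42 ± 0.49 (edgeR adjusted p = 0.097). It passed with DESeq2 (adjusted p = 0.035) and with the other crosses weighted equally (0.039). It did not pass with limma-voom (0.15) or with cross as a random block (0.998). Leaving out any sibling or any other cross did not make it pass either. Taken singly, 5 of the 10 crosses were above cross 2172.

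CDI, aspartic protease inhibitor 8, had 23.8, 62.2, 156, 31.7, 213, 307 and 161 CPM in cross 2172, against 8.93, 253 and 1763 CPM in the others (-1.23 ± 0.57, adjusted p = 0.23). STKTI, annotated as cysteine protease inhibitor 1, had 393, 347, 700.0, 274, 984, 535 and 403 CPM, against 185, 730.3 and 2640.0 CPM (-0.68 ± 0.30, adjusted p = 0.20). In both genes 6 of the 7 siblings were under the median of the others. KTPI, a Kunitz-type proteinase inhibitor and the most abundant gene of the list, had 2548, 856, 1514, 1000, 6134, 2782 and 1278 CPM, against 482, 3142 and 11750 CPM (-0.68 ± 0.38, adjusted p = 0.33). Only 2172_5 was above the median of the others. KTEI, a Kunitz-type enzyme inhibitor, had 1.63, 37.1, 62.9, 31.1, 203, 97.1 and 57.8 CPM, against 2.09, 102 and 876 CPM (-1.13 ± 0.69, adjusted p = 0.38), and 2172_1 lay under every sample of the other crosses.

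In CPI1, PIN2K and KTI-D, at least 2 siblings lay on each side of the median of the others. CPI1, also annotated as cysteine protease inhibitor 1, had 6.96, 39.1, 128, 27.4, 63.9, 19.0 and 3.01 CPM in cross 2172, against 1.79, 20.7 and 922 CPM (-1.39 ± 1.00, adjusted p = 0.48). Of its siblings, 4 were above the median of the others although the fitted value was negative. PIN2K, a type 2 proteinase inhibitor, had 179, 192, 256, 90.01, 249, 504 and 209 CPM, against 22, 216 and 931 CPM (-0.14 ± 0.36, adjusted p = 0.87). KTI-D, annotated as miraculin on chromosome 12, had 36.0, 13.2, 86.1, 3.45, 70.1, 99.9 and 40.5 CPM, against 1.02, 34.8 and 520.1 CPM (-0.07 ± 0.69, adjusted p = 0.97). The low-bruising genotype 2172_4 had the lowest value of the family in PIN2K, KTI-D and STKTI. Aspartic protease inhibitor 10 had no read in 6 siblings and 0.0532 CPM in 2172_6, while 47 of the 93 others had none and the highest reached 208 CPM.

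**Figure D4:**
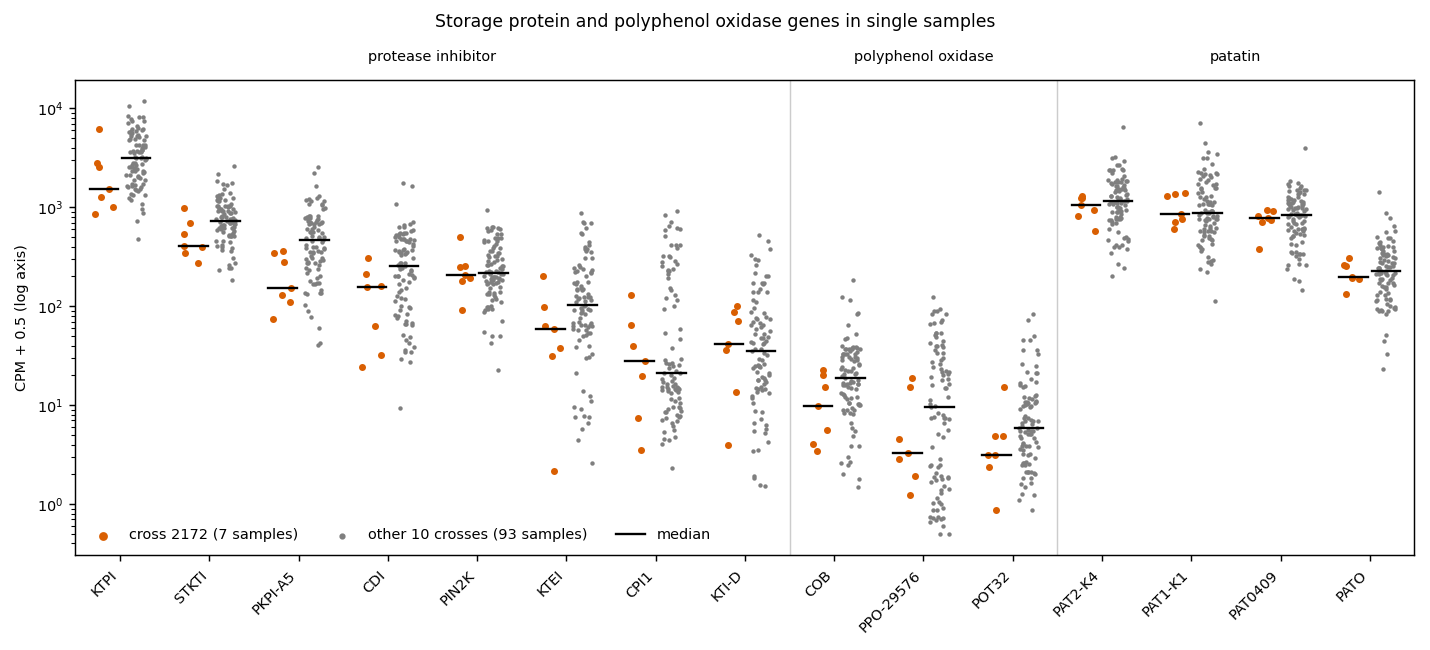
CPM plus 0.5 (log axis) of protease inhibitor, polyphenol oxidase and patatin genes with a mean of at least 10 CPM, in the 7 samples of cross 2172 (orange) and the 93 of the other crosses (grey), with black lines at the medians. All 7 values of PKPI-A5 lay under the median of the others, 469 CPM, while the patatin values of cross 2172 fell in the middle of the grey points.

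Patatins, the main storage glycoproteins of the tuber, lay near the level of the other crosses. None of the 5 passed the test, and the smallest edgeR adjusted p was 0.61. PAT2-K4 had 1242, 1053, 1242, 577, 1313, 821 and 940.3 CPM in cross 2172, against 201, 1166 and 6490.0 CPM as the lowest, median and highest of the others (-0.37 ± 0.35). PAT1-K1 had 1406, 1360.0, 859, 710, 764, 1286 and 609 CPM, against 114, 882 and 7045 CPM (-0.18 ± 0.42, with a positive value under limma-voom). The SD of cross 2172 was 267 CPM for PAT2-K4 and 339 CPM for PAT1-K1 (n = 7), against 871 and 1036 CPM over the other crosses (n = 93).

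PAT0409 had 822, 745, 907, 380, 949, 709 and 776 CPM in cross 2172, against 144, 836 and 4005 CPM in the others (-0.22 ± 0.32). PATO had 306, 260.3, 252, 131, 198, 188 and 193 CPM, against 22.5, 225 and 1441 CPM (-0.27 ± 0.38, also positive under limma-voom). The sibling 2172_4 had the lowest value of the family in PAT2-K4, PAT0409 and PATO. PAT3, the member on chromosome 2, was scarce, with 0.316 to 14.0 CPM in cross 2172 and 0 to 30.5 CPM in the others. The copies of this family are near-identical, and their single values are uncertain for the same reason as those of the inhibitors.

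**Figure D5:**
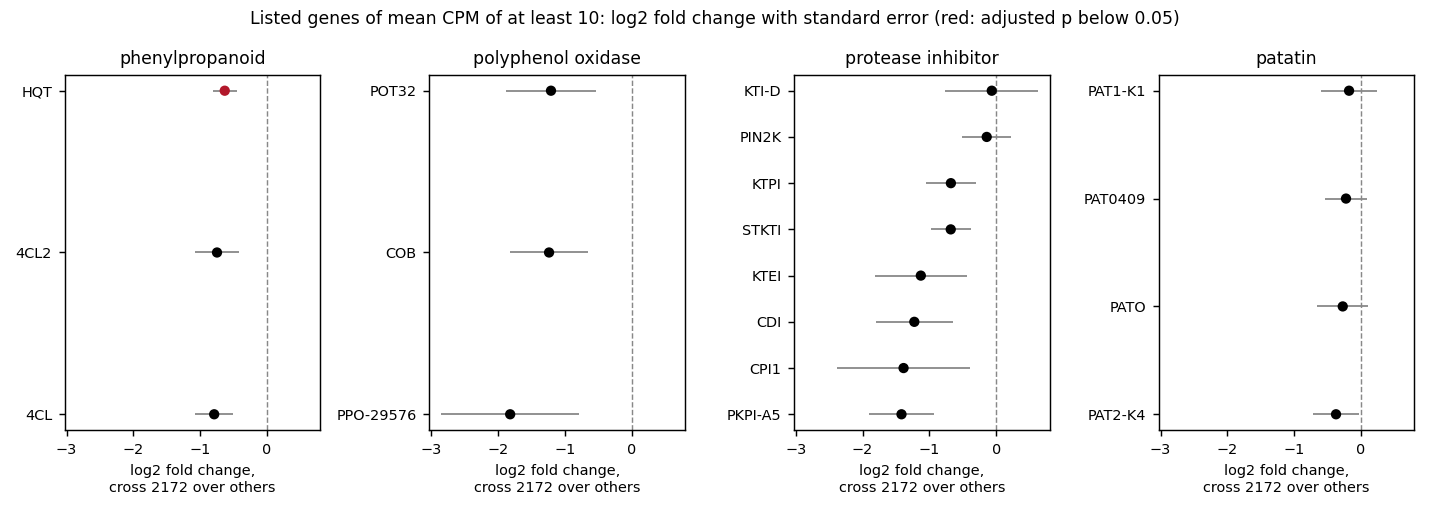
Log2 fold change of cross 2172 over the other crosses (points, with standard errors as bars) for members of 4 gene lists with a mean of at least 10 CPM, from edgeR's fit to 7 and 93 samples. The values of HQT (red, adjusted p = 0.035), the polyphenol oxidases and the protease inhibitors were below 0, and those of the patatins shown lay between -0.37 and -0.18.

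The other 4 listed genes past the threshold came from the study's bruising-associated genes. Of the 7 transporter genes, 6 had a negative log2 fold change (median -1.25), and 1 was lower by the test. Among the 12 genes of unknown function, 8 had a negative value (median -0.16), and 1 was higher by the test. The 16 other bruising-associated genes had 10 positive values (median 0.05), and 2 were higher by the test. A peptide transporter gene (PGSC0003DMG400006606, chromosome 6) was lower in cross 2172, with 0, 0.195, 0.244, 0.506, 0, 0.691 and 0.446 CPM, against 0.0662, 1.01 and 6.37 CPM as the lowest, median and highest of the others. No sample of the other crosses was at 0, all 7 siblings were under their median, and the log2 fold change was -2.15 ± 0.61 (edgeR adjusted p = 0.039). The call was lost without 2172_1, 2172_2, 2172_3 or 2172_5 (adjusted p up to 0.11), without cross 2121, 2159 or 2175, and with cross as a random block (adjusted p = 0.80). A related gene annotated as a peptide transporter (PGSC0003DMG400022107) had 0.580, 0.341, 0.448, 1.103, 0, 0.319 and 0.279 CPM, against 0, 1.03 and 9.39 CPM in the others (-1.57 ± 0.50, adjusted p = 0.071).

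A conserved gene of unknown function (PGSC0003DMG400019241, chromosome 7) was higher. It had 0.580, 7.64, 11.7, 4.37, 2.20, 6.49 and 3.07 CPM in cross 2172, against 0.0444, 1.60 and 7.25 CPM as the lowest, median and highest of the others. Genotypes 2172_2 and 2172_3 lay above every sample of the other crosses, and 2172_1 lay under their median. The log2 fold change was 1.40 ± 0.31 (edgeR adjusted p = 0.0037), and the gene was higher than in 8 of the 10 other crosses taken singly, the exceptions being crosses 2121 and 2168. Without 2172_2 the adjusted p was 0.057, and with cross as a random block it was 0.099.

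A gene for a pentatricopeptide repeat-containing protein (PGSC0003DMG400009885, chromosome 4), of a family that processes organelle RNA in plants, was also higher. It had 36.5, 52.4, 45.6, 58.8, 35.8, 44.0 and 39.0 CPM in cross 2172, against 14.7, 28.3 and 67.5 CPM in the others, and all 7 siblings were above the median of the others. The log2 fold change was 0.57 ± 0.15 (edgeR adjusted p = 0.024). The family mean was 44.6 ± 8.56 CPM (SD, n = 7), and those of crosses 2165 (43.9 CPM) and 2168 (42.0 CPM) did not differ from it (adjusted p = 0.80 and 0.81), with differences of 0.08 ± 0.15 and 0.11 ± 0.15 on the log2 scale. The call was lost without 2172_2, 2172_4 or 2172_7 (adjusted p up to 0.16), without cross 2159, without the bruising covariate and with cross as a random block (adjusted p = 0.50).

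The RecA protein gene (PGSC0003DMG400008143, chromosome 10), whose bacterial namesake acts in DNA recombination and repair, owed its call to 1 genotype. It had 78.4, 7.26, 4.93, 6.30, 2.72, 2.87 and 5.18 CPM in cross 2172, against 1.57, 4.25 and 56.6 CPM in the others. Genotype 2172_1 lay above all 93 other samples, and 2172_5 and 2172_6 lay under their median. The log2 fold change was 1.60 ± 0.42 (edgeR adjusted p = 0.021), and without 2172_1 it was -0.15 (adjusted p = 0.89). The call was also lost without cross 2158 (adjusted p = 0.069), without the bruising covariate (0.094), with limma-voom (0.56) and with cross as a random block (0.998).

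The remaining lists held no gene past the threshold. Of the 6 genes for transcription and DNA or RNA binding, 5 had a positive log2 fold change (median 0.31). The AP2/ERF domain-containing transcription factor, of a class that takes part in ethylene and stress responses, had 81.5, 201, 238, 134, 108, 145 and 127 CPM in cross 2172, against 44.6, 109.9 and 294 CPM in the others (0.41 ± 0.16, edgeR adjusted p = 0.14). Phi-2 had 31.6 to 76.2 CPM in cross 2172 and 30.3 to 119 CPM in the others (-0.28 ± 0.16, adjusted p = 0.33). Homeodomain leucine-zipper 1 was above the median of the others, 3.99 CPM, in all 7 siblings, with 5.56 to 9.01 CPM (0.54 ± 0.28, adjusted p = 0.29).

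All 5 lipid genes in the table had a negative log2 fold change (median -1.29). LOX1-ST-2, a lipoxygenase that oxidises polyunsaturated fatty acids, had 353, 52.3, 361, 120, 867, 370.3 and 352 CPM in cross 2172, against 59.7, 577 and 8582 CPM in the others (-1.29 ± 0.60, adjusted p = 0.23). The sibling 2172_2 lay under every sample of the other crosses. Of the starch genes, AGPB1, the small subunit of the enzyme that makes ADP-glucose, had 428, 412, 547, 360.4, 638, 619 and 429 CPM, against 311, 672 and 1237 CPM (-0.45 ± 0.16, adjusted p = 0.11). All 7 siblings were under the median of the others. PHO1A, an alpha-glucan phosphorylase, had 649 to 1344 CPM in cross 2172 and 363 to 1735 CPM in the others (0.11 ± 0.18, adjusted p = 0.78).

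The 5 kinase, 3 ubiquitin and 3 disease resistance genes had medians of -0.27, 0.24 and -0.01 on the log2 scale. Within the ubiquitin list, ubiquitin carboxyl-terminal hydrolase isozyme L3, which releases ubiquitin, had 0.891 to 3.01 CPM in cross 2172 and 0.821 to 8.46 CPM in the others, and all 7 siblings were under the median of the others, 3.47 CPM (-0.70 ± 0.25, adjusted p = 0.11). Of the other 4 candidates, AN34, an annexin that binds membranes in the presence of calcium, had its lowest family mean in cross 2172, 1341 ± 398 CPM (SD, n = 7), against 1740.0 ± 454 CPM (SD, n = 93) in the others (-0.40 ± 0.15, adjusted p = 0.14). Neither CI21A, Stl013 nor Stl024 passed the test.

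High- and low-bruising genotypes were compared within the family as a contrast of 2 against 2 samples, fitted with all 100 samples so that the spread came from every combination of cross and bruising group. No gene passed the adjusted threshold (0 of 25163, 0% of genes, by edgeR), 1161 (4.61%) had an unadjusted p below 0.05, limma-voom called 0 and DESeq2 called 16. The difference between this effect and the mean effect of the other 8 crosses that have both groups was called for 0 genes by edgeR (0% of genes), with 1050 (4.17%) at an unadjusted p below 0.05, for 0 by limma-voom and for 16 by DESeq2.

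Between the 2 high- and the 2 low-bruising siblings, 43 of the 92 listed genes (46.7%) did not overlap, against 30.2% of all genes. Of the 43, 27 had higher and 16 had lower values in the high-bruising siblings. Over all 25163 genes the counts were 3487 higher and 4107 lower. Of the listed genes, 57 were picked by the study for a difference between bruising groups in samples that include these 4, so the share is no independent evidence, and none of the 92 passed the test. The genes that follow are examples, and bruising-associated genes went both with and against the direction that the study reports. HQT had 192 and 174 CPM in the high-bruising siblings, against 122 and 112 CPM in the low-bruising ones (log2 fold change 0.65 ± 0.35, edgeR adjusted p = 0.99). Phi-2 had 76.2 and 50.2 CPM in the high-bruising siblings, against 31.6 and 44.3 CPM in the low-bruising ones (0.73 ± 0.34, adjusted p = 0.99). A conserved gene of unknown function (PGSC0003DMG400024270) had 0.448 and 0.16 CPM in the high-bruising siblings, against 1.70 and 2.62 CPM in the low-bruising ones (-2.78 ± 0.81, adjusted p = 0.71), the smallest p of the 92 listed genes.

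The heat shock protein 70-interacting protein had 6.92 and 2.13 CPM in the high-bruising siblings, against 14.2 and 10.3 CPM in the low-bruising ones (-1.43 ± 0.57, adjusted p = 0.99). Like Phi-2 and PGSC0003DMG400024270, it went in the direction that the study reports. Against that direction, the 16kDa membrane protein gene had no read in the high-bruising siblings and 1.93 and 1.45 CPM in the low-bruising ones (-8.10 ± 3.41, edgeR adjusted p = 0.99). The OPT family oligopeptide transporter gene also went against it, with 124 and 155 CPM, against 76.1 and 105.9 CPM (0.62 ± 0.45, edgeR adjusted p = 0.99). Both abundant starch genes had higher values in the high-bruising siblings, with AGPB1 at 547 and 619 CPM in the high-bruising siblings, against 360.4 and 429 CPM in the low-bruising ones (0.56 ± 0.32, adjusted p = 0.99), and PHO1A at 1219 and 964 CPM, against 649 and 675 CPM (0.72 ± 0.42, adjusted p = 0.99). By the narrow call given above, HQT was lower in the family than in the pooled other crosses. Within the family its lowest values were those of the low-bruising siblings 2172_4 and 2172_7 and of 2172_5.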

How the data were processed

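PolyA RNA libraries of bruised tubers from 100 genotypes of 11 crosses were sequenced by the authors, who used FastQC 0.11.7 and STAR 2.6.1 with the PGSC-DM genome as reference, as the submitters' processing notes and the study's methods state. The deposited values are raw counts of uniquely aligned reads per gene, not normalized, for the 25163 genes left by the authors' filter; the strand setting of the counting is not given in the sources used here.

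Cross and bruising group were read from the sample titles. The counts were scaled by TMM and tested with edgeR 4.0.16 (glmQLFit and glmQLFTest, R 4.3.3), with cross 2172 against the others and bruising group (high, neither, low) as terms, over all 100 samples. Benjamini-Hochberg adjustment was made over all genes, with a threshold of 0.05. Other contrasts used a term for each cross, or for each combination of cross and bruising group. SE is the log2 fold change divided by the root of F. Alternatives included DESeq2 1.42.0, limma-voom from limma 3.58.1, other size factors and filters, cross as a random block, a replicate block, and each sibling or cross left out. The edgeR test was also run on simulated counts, drawn with no family differences beyond those set for cross 2172. That run therefore cannot show how differences among the other families affect the calls.

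The members, lists and tests were chosen with earlier results of these data known. All 97 listed genes were accounted for by list. Single values are given for listed genes past the threshold, for patatin, protease inhibitor and polyphenol oxidase genes with a mean of at least 10 CPM, and for 2 unnamed identifiers in each direction (mean of at least 1 CPM, passing without each sibling). These other genes were chosen with their values known: 4CL, 4CL2, LOX1-ST-2, AGPB1, the AP2/ERF gene, the second peptide transporter and those named within the bruising contrast. Gene names and chromosomes come from the study's gene tables, since the reference gene table matched 0 identifiers, and no sequence, position or gene length was used. Levels are per library and not per length. Words such as abundant or scarce, and sums over a list, thus refer to counted reads and not to numbers of transcripts.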

Additional observations from a re-analysis of the deposited data

Results flagged for a closer look

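Of 25 reported values with 7 samples, 5 had a sibling of cross 2172 far from the other 6 by Dixon's test on unlogged CPM. The test flags about 1 in 20 such groups by chance where values are normally distributed. Unlogged CPM values can have a longer upper tail, so high values may be flagged more often than that. The genes also share the same 7 samples. KTPI was at 6134 CPM in 2172_5, against 2782 CPM in the next sibling. PIN2K was at 503.6 CPM in 2172_6, against 256 CPM in the next, and POT32 was at 14.89 CPM in the same sibling, against 4.38 CPM in the next. PAT0409 was at 379.7 CPM in 2172_4, against 709 CPM in the next sibling. The RecA protein gene was at 78.43 CPM in 2172_1, against 7.26 CPM in the next. The gap to the nearest sibling took up 0.94 of the family's range in RecA, 0.72 in POT32, 0.64 in KTPI, 0.60 in PIN2K and 0.58 in PAT0409. Genotype 2172_1 was also the sibling least like the rest of the family across genes; the part of either in the other was not tested.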

How the results depend on the processing

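The count of 597 genes varied with the setting. It was 845 with limma-voom and 72 with limma-voom and cross as a random block, 1939 with the other crosses weighted equally, 1060 with DESeq2, 138 with high- and low-bruising samples only, 1051 without cross 2165, 185 at an adjusted p below 0.01 and 267 with a 2-fold minimum, and it ran from 311 (without 2172_3) to 516 (without 2172_6) when 1 sibling was left out. It was 312 without 2172_2, 322 without 2172_7, 347 without 2172_4 and 354 without 2172_5. The share of calls that were higher in cross 2172 was 60.3%, and it was 50.2% with filterByExpr, 50.1% with a mean of at least 1 CPM, 33.0% with DESeq2, 74.1% with limma-voom, 78.3% with high- and low-bruising samples only and 49.1% without cross 2165. The 5 listed genes became 0 with the random block and with high- and low-bruising samples only, 11 with DESeq2, 12 with equal weights, 3 without the bruising term, 2 without cross 2159, and 1 (without 2172_2) to 5 when 1 sibling was left out, with 2 without 2172_1 and 3 without 2172_5 or 2172_7. Within cross 2172, and for its difference from other crosses, DESeq2 called 16 genes each. Against cross 2168 the 457 genes became 290 (without 2172_3) to 523, and against cross 2170 the 594 became 350 (without 2172_2) to 692, with 386 without 2172_7. Fold changes near 0 turned sign. PIN2K was 0.0354 with limma-voom, and -0.37 to 0.0124 without 1 sibling. PAT1-K1 was 0.0506 with the random block and 0.0967 with limma-voom, and PATO was 0.0315 and 0.0507. KTI-D was 0.008 with equal weights, 0.38 with high- and low-bruising samples only, 0.0912 without cross 2158, and -0.50 to 0.17 without 1 sibling. RecA was -0.38 with high- and low-bruising samples only, and -0.15 to 1.85 without 1 sibling. The causes were not tested. With the replicate block, 596 genes passed; replicate numbers did not pair samples (r = 0.0662 between the deviations of the numbers in cross 2172 and in the others). Genes under 1 CPM, 106 of the 597, rest on few reads.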

Other observations

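Siblings also differed by whether a gene was read at all. In cross 2172, 1083 genes had no read in 1 to 6 of the 7 genotypes and at least 1 CPM in another, and 102 of these had at least 1 CPM in every sibling that was not at 0. The same counts were 1159 and 77 in cross 2168, which also has 7 samples. The gene for a 16kDa membrane protein, from the study's bruising-associated genes, was at 0 in 2172_2 and in the high-bruising siblings 2172_3 and 2172_6. The study reports this gene as higher in high-bruising tubers. It was at 0.629 to 1.93 CPM in the other 4 siblings, and 22 of the 93 samples of the other crosses had no read. UPA16 had no read in 2172_2 and 0.0532 to 1.21 CPM in the other 6 siblings, against a highest value of 67.0 CPM in the other crosses. Vicilin, a seed storage globulin, had 1.39 to 36.1 CPM in cross 2172, against a median of 2.11 CPM in the others, and 6 of the 7 siblings were above that median (log2 fold change 1.27 ± 0.71, edgeR adjusted p = 0.33). No read in any sibling was found for 401 genes, of which 23 had a read in at least 47 of the 93 others.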
